A study of Oryctolagus cuniculus with 16 samples.

Results

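The genes that mark fat cells of the bone marrow were examined in the femoral head of rabbits with experimental Perthes disease. The list held 10 genes, namely *ADIPOQ*, *LEP*, *PLIN1*, *PLIN4*, *FABP4*, *CIDEC*, *LPL*, *PPARG*, *CEBPA* and *CFD*, and a gene was taken where its symbol in the deposited gene table was equal to the listed name. A row was found for 7 of the 10 genes among the 20255 genes of the table, whereas *PLIN1*, *PLIN4* and *CFD* were not analysed here. Total RNA was sequenced from the femoral heads of 5 rabbits of the Perthes disease group and 3 wild-type control rabbits, with 1 library per rabbit. In the Perthes disease group, the hip of 8-week-old rabbits was opened, the femoral neck was tied with a suture, and the ligamentum teres was cut, which obstructs the blood supply of the epiphysis. The label of the Perthes disease group names a genotype, but the condition was made by surgery in wild-type animals. The strain, the age and any sham operation of the controls, and the interval between surgery and sampling are not given in the sources used here. The labels name the femoral head as the tissue, and no sorting of cells is described.

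Marrow adipocytes arise from stromal cells of the marrow that also give rise to bone-forming cells. The transcription factors PPARG and CEBPA drive their differentiation, and the mature cell stores triglyceride in a large lipid droplet, whose growth is promoted by the droplet protein CIDEC. Adipocytes take up fatty acids that lipoprotein lipase (LPL) releases from circulating lipoproteins, carry them inside the cell on FABP4, and secrete the hormones adiponectin (*ADIPOQ*) and leptin (*LEP*). Some of these genes are not restricted to fat cells, as *FABP4*, *LPL* and *PPARG* are also transcribed in macrophages and *FABP4* in endothelial cells, while *CEBPA* is also a regulator of granulocyte precursors.

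The library totals lay between 26757087 and 29461482 counts. Levels are given in CPM, the count relative to the library total after scaling by the TMM method, and 1 count corresponded to between 0.0332 and 0.0374 CPM. All 7 genes passed the low-count filter and were tested together with 15305 genes by the quasi-likelihood test of edgeR. A gene was called at an adjusted p below 0.05. Of all genes tested, 951 (6.21%) were called higher and 1357 (8.87%) lower in Perthes rabbits, while 1719 genes (11.2%) were higher and 2134 (13.9%) lower in every Perthes rabbit than in every control. Scaled by library totals alone, the calls were 678 higher and 1705 lower. These calls depended on single rabbits of both groups. Without control rabbit 2, 0 genes were called in either direction by edgeR, although 1624 genes higher and 2098 lower had an unadjusted p below 0.05, and without control rabbit 1 the calls numbered 73 and 184. Without control rabbit 3 they were 695 higher and 1183 lower. Without Perthes rabbits 1 to 5 in turn, 802, 941, 385, 1267 and 351 genes were called higher. Those called lower numbered 1198, 1628, 646, 1423 and 550. On the first principal component of log2 CPM, which held 56.1% of the variance, Perthes rabbit 2 was placed nearest to the controls, and on the second Perthes rabbit 4 stood apart from the other 7 rabbits. The markers of cartilage and bone were abundant in all libraries, as *COL2A1* averaged 60410 CPM in Perthes rabbits and 47780 CPM in controls, and *COL1A1* averaged 91190 and 81910 CPM.

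None of the 7 adipocyte genes was called higher or lower in Perthes rabbits by edgeR, and for none of them were the groups free of overlap. The number with an unadjusted edgeR p below 0.05 was also 0. Over all 15305 genes tested, 2345 higher and 2538 lower genes had such a p. DESeq2 called 0 of the 6 adipocyte genes to which it gave a p (it gave none for *CIDEC*). The median log2 fold change of the 7 genes was -0.22, with 5 of them below 0, against a median of 0.025 over all genes tested. What differed most between the genes was their spread among the Perthes rabbits, in which *CIDEC* and *LEP* were nearly absent from some rabbits and close to control levels in another. A lower level of a cell type's gene in such bulk tissue can reflect fewer of these cells or less RNA per cell, and both cannot be told apart here.

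**Figure D1:**
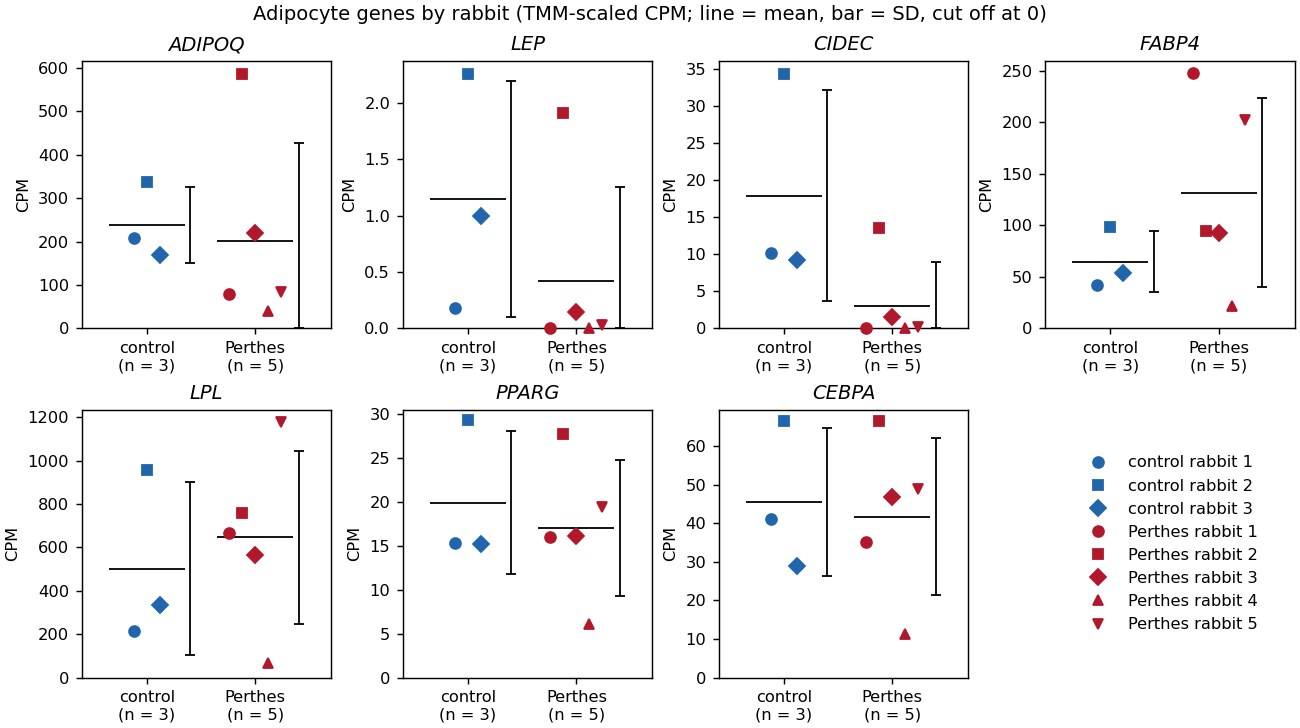
Level of each of the 7 adipocyte genes in every rabbit, as TMM-scaled CPM on a linear axis from 0, for 3 control (blue) and 5 Perthes rabbits (red). Horizontal lines mark the mean and vertical bars the SD, and the symbol gives the rabbit number. The groups overlap for each gene, and Perthes rabbit 4 lies lowest (for *LEP*, at 0 together with Perthes rabbit 1).

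Of the hormone genes, *ADIPOQ* (gene 100009027), which encodes the insulin-sensitizing hormone adiponectin, had 78.9, 587, 221, 41.1 and 85.2 CPM in Perthes rabbits 1 to 5 and 208, 338 and 170 CPM in control rabbits 1 to 3. Perthes rabbits 1, 4 and 5 lay below the lowest control, whereas Perthes rabbit 2 had the highest level of all 8 rabbits and held 56.7% of the Perthes counts. The means were 202.5 ± 225.4 CPM (SD, n = 5) and 238.5 ± 88.04 CPM (SD, n = 3), and the log2 fold change was -0.24 (standard error, SE, 0.77, edgeR adjusted p = 0.855). The direction of this change was not stable, because it became 0.10 without control rabbit 2 and 0.025 without Perthes rabbit 4, and -1.16 without Perthes rabbit 2. Adjusted p-values over these and the other alternatives ran from 0.164 to 0.984.

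*LEP* (gene 100008747), encoding leptin, which signals the size of the fat store, was close to the limit of detection. The libraries of Perthes rabbits 1 to 5 held 0, 51, 4, 0 and 1 counts of *LEP*, and those of control rabbits 1 to 3 held 5, 64 and 30 counts. A count of 0 allows up to 3 counts, or 0.101 CPM in Perthes rabbit 1 and 0.109 CPM in Perthes rabbit 4, from counting error alone. In these values 4 Perthes rabbits lay below the lowest control, and Perthes rabbit 2, with 91.1% of the Perthes counts, lay between control rabbits 2 and 3. The 4 counts of Perthes rabbit 3 and the 5 counts of control rabbit 1 cannot be told apart by counting. The log2 fold change was -1.46 (SE 1.38, edgeR adjusted p = 0.496), and the two-sided exact permutation test on log2(CPM + 0.1) gave p = 0.143.

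*CIDEC* (gene 103345507), whose protein promotes the fusion and growth of lipid droplets, showed the lowest Perthes values relative to the controls. It reached 0.101, 13.6, 1.58, 0.0364 and 0.136 CPM in Perthes rabbits 1 to 5, which correspond to 3, 364, 43, 1 and 4 counts. The controls had 10.2, 34.4 and 9.21 CPM, or 285, 975 and 277 counts. Thus 4 of the 5 Perthes rabbits were below every control, and 3 of them at 4 counts or fewer, while Perthes rabbit 2 exceeded control rabbits 1 and 3 and held 87.7% of the Perthes counts.

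With means of 3.10 ± 5.92 CPM (SD, n = 5) and 17.9 ± 14.2 CPM (SD, n = 3), the log2 fold change of *CIDEC* was -2.54 (SE 1.41, edgeR adjusted p = 0.246). The exact permutation test on its log2(CPM + 0.1) values gave p = 0.107. Without Perthes rabbit 2 the log2 fold change of *CIDEC* was -5.28 (SE 1.05, edgeR adjusted p = 0.0122), and this was the only member and the only omission at which a member was called. Without control rabbit 2 it was -1.65, and the adjusted p-values over all alternatives ran from 0.0122 to 0.572.

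The genes of fatty acid handling showed another order of the rabbits. *FABP4* (gene 100009416), the fatty acid carrier of the adipocyte cytoplasm, had 248, 95, 92.3, 21.4 and 202 CPM in Perthes rabbits 1 to 5 and 41.9, 98.2 and 53.8 CPM in the controls. Perthes rabbits 1 and 5, which were low in *ADIPOQ* and *CIDEC*, had the highest *FABP4* levels of all rabbits, and Perthes rabbit 4 had the lowest. The log2 fold change was 1.03 (SE 0.67, edgeR adjusted p = 0.321). It ranged from 0.67 to 1.46 when 1 rabbit was left out at a time.

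*LPL* (gene 100340171), encoding the lipase that frees fatty acids from triglyceride-rich lipoproteins, had 666, 758, 566, 66.1 and 1178 CPM in Perthes rabbits 1 to 5. The controls were at 217, 957 and 336 CPM, so the rabbits of each group were spread widely and Perthes rabbit 4 was below all others. The means were 647 ± 400 CPM (SD, n = 5) and 503 ± 397 CPM (SD, n = 3), with a log2 fold change of 0.36 (SE 0.76, edgeR adjusted p = 0.773).

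The regulators of adipocyte differentiation varied least. *PPARG* (gene 100008892), the nuclear receptor required for adipocyte formation, had 15.97, 27.7, 16.1, 6.15 and 19.4 CPM in Perthes rabbits 1 to 5 and 15.3, 29.3 and 15.2 CPM in the controls. *CEBPA* (gene 100358602), a leucine zipper factor that acts with PPARG, had 35.04, 66.4, 46.7, 11.3 and 49.0 CPM in Perthes rabbits and 41.0, 66.5 and 28.9 CPM in the controls. For both regulators, control rabbit 2 and Perthes rabbit 2 were the 2 highest and Perthes rabbit 4 was the lowest. Of the other 5 rabbits, the Perthes and control rabbits were interleaved in *CEBPA*, while in *PPARG* control rabbits 1 and 3 lay just below Perthes rabbits 1, 3 and 5. The log2 fold changes were -0.22 for *PPARG* (SE 0.42, edgeR adjusted p = 0.747) and -0.12 for *CEBPA* (SE 0.48, edgeR adjusted p = 0.879). Without control rabbit 2 both signs turned, to 0.16 and 0.25, and that of *CEBPA* also turned to 0.12 without Perthes rabbit 4.

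**Figure D2:**
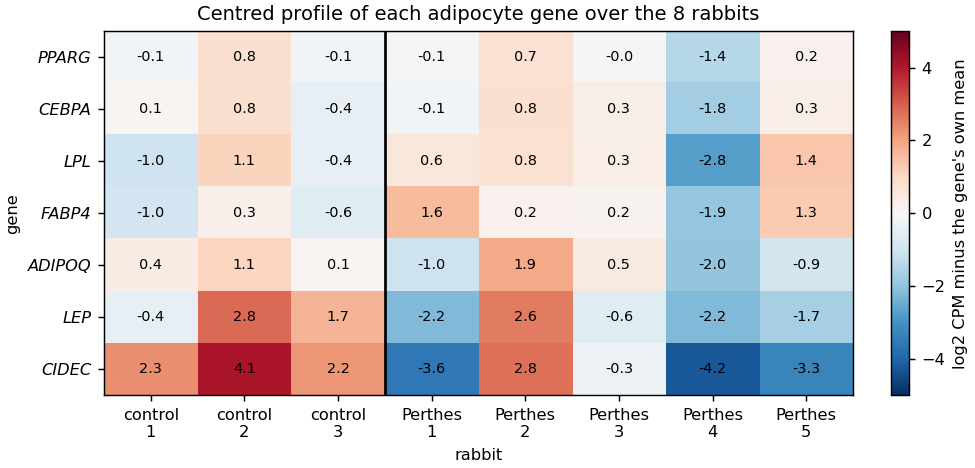
Each cell gives the log2 CPM (prior count of 2) of a gene in 1 rabbit minus the mean of that gene over the 8 rabbits, on a colour scale from -5 to 5, with controls to the left of the black line. *CIDEC* is above its mean in the 3 controls and Perthes rabbit 2 and below it in the other 4 Perthes rabbits, while *PPARG* and *CEBPA* stay within 2 log2 units of their means in every rabbit.

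The profiles of the 7 genes over the 8 rabbits were compared by the root mean square difference of their centred log2 CPM values, which is a description over 8 libraries and carries no test. *PPARG* and *CEBPA* were the most alike, at 0.21 log2 units, followed by *FABP4* and *LPL* at 0.59 and by *LPL* and *CEBPA* at 0.71. *LEP* was closest to *ADIPOQ*, at 1.12, and *CIDEC* was closest to *LEP*, at 1.502. The largest difference, 3.41, lay between *FABP4* and *CIDEC*. Of the 7 genes, *CEBPA*, *CIDEC*, *LEP* and *PPARG* had their highest value in control rabbit 2, *ADIPOQ* had it in Perthes rabbit 2, *FABP4* in Perthes rabbit 1 and *LPL* in Perthes rabbit 5.

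To remove the scaling between libraries, the 6 other genes were set in proportion to *ADIPOQ* within each rabbit, as log2 ratios of CPM with 0.1 CPM added to both genes. The log2 ratio of *CIDEC* to *ADIPOQ* was -8.62, -5.42, -7.04, -8.24 and -8.50 in Perthes rabbits 1 to 5 and -4.34, -3.29 and -4.19 in control rabbits 1 to 3. Every Perthes rabbit, including Perthes rabbit 2, was thus below every control in *CIDEC* relative to *ADIPOQ*. The mean difference was -3.62 log2 units (two-sided exact permutation test, p = 0.0357, which is the smallest p that 5 against 3 rabbits allow). With 0.5 CPM added in place of 0.1, the difference was -2.60 at the same p. When 1 rabbit was left out at a time the difference lay between -4.16 and -3.30. The p was then 0.0571 without a Perthes rabbit and 0.0952 without a control, in each case the smallest that the remaining rabbits allow.

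For the other 5 ratios to *ADIPOQ* the groups overlapped, and the exact permutation p-values were 0.143 for *LEP*, 0.214 for *FABP4*, 0.393 for *LPL*, 0.429 for *PPARG* and 0.357 for *CEBPA*. The 6 p-values are not adjusted for one another. The 3 controls had nearly constant proportions of *PPARG*, *CEBPA* and *FABP4* to *ADIPOQ*, with an SD of 0.15, 0.12 and 0.35 log2 units, against 0.98, 0.92 and 1.80 in the 5 Perthes rabbits. In *FABP4* relative to *ADIPOQ*, Perthes rabbits 1 and 5 reached 1.65 and 1.25, while the other 3 Perthes rabbits lay between -2.63 and -0.94 and the controls between -2.31 and -1.65.

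**Figure D3:**
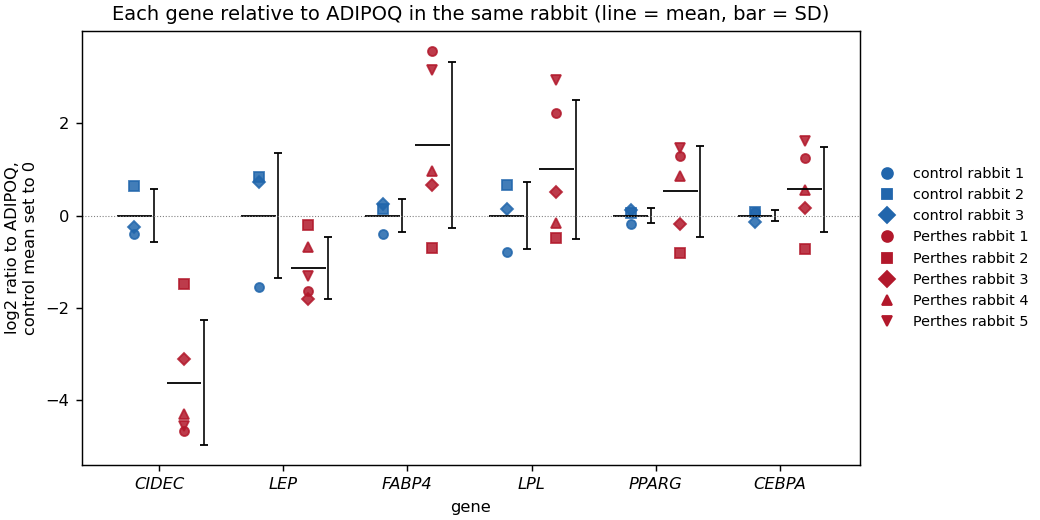
Log2 ratio of each gene to *ADIPOQ* within the same rabbit, drawn with the control mean of each gene set to 0, for 3 control (blue) and 5 Perthes rabbits (red). Lines are means and bars are SDs. Only for *CIDEC* do all 5 Perthes rabbits lie below all 3 controls, by a mean of -3.62 log2 units.

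Among 12296 other tested mRNAs with a gene name, those whose centred profile was closest to that of *ADIPOQ* were *ADRA1D*, *CRHR2*, *RSPO1*, *IL13RA2* and *CD300LG*, at 0.41 to 0.46 log2 units. They were followed by *BGLAP*, *AQP10*, *ENPEP*, *AOX3* and *DPEP1*, at 0.48 to 0.56 log2 units. Except for *BGLAP*, which encodes osteocalcin of bone-forming cells, and *ENPEP*, these genes averaged 20.9 CPM or less in either group. *ADRA1D*, *CRHR2* and *AQP10* averaged below 0.5 CPM in both groups, so their closeness to *ADIPOQ* rests on few counts. The genes closest to *CIDEC*, a reference added after the data were seen, were *GPD1*, *MC5R*, *CYP2B4*, *AQP8* and *THRSP*, at 0.47 to 0.85 log2 units. *CYP2A11*, *CIDEA*, *PCK1*, *PFKFB1* and *SLC7A10* followed at 0.99 to 1.15. Of these, *GPD1* makes the glycerol backbone of triglyceride, *CIDEA* is a lipid droplet relative of CIDEC, *PCK1* serves glyceroneogenesis and *THRSP* is linked to fatty acid synthesis. The level of *GPD1* was 16.2 CPM on average in Perthes rabbits and 71.7 CPM in controls, a log2 fold change of -2.15 (edgeR adjusted p = 0.291). None of the 10 genes closest to *CIDEC* was called, the lowest edgeR adjusted p being 0.0675 for *PCK1*. They were picked for a profile like that of *CIDEC*, so their lower Perthes levels follow from this choice and are no separate evidence. *GPD1*, *CIDEA*, *PCK1* and *THRSP* also stand in the list of further fat-cell genes described next.

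A further list of 25 fat-cell genes that does not share a gene with the 7 was then examined, of which 20 were in the table and 19 were tested. Of these, 2 were called lower and 0 higher, where 8.87% of all genes tested were called lower and 6.21% higher. The same shares apply to the counts of the lists that follow. A log2 fold change below 0 was found in 15 of the 19, with a median of -1.64, and in 7406 of all 15305 genes tested. *RETN*, encoding the hormone resistin, fell and averaged 0.787 ± 0.763 CPM in Perthes rabbits against 14.5 ± 10.5 CPM in controls (SD, n = 5 and 3), with a log2 fold change of -4.21 (SE 0.92, edgeR adjusted p = 0.0202) and groups that did not overlap. *LGALS12*, a galectin of the lipid droplet, fell and averaged 0.826 ± 0.835 against 3.92 ± 1.68 CPM (SD, n = 5 and 3), with a log2 fold change of -2.25 (SE 0.66, edgeR adjusted p = 0.0499). The groups overlapped in *LGALS12*, as Perthes rabbit 2, at 2.28 CPM, lay above control rabbit 3, at 2.16 CPM. With 1 rabbit left out at a time, *LGALS12* was called only without Perthes rabbit 2 (edgeR adjusted p = 0.00416). The markers of granulocyte precursors were set beside *RETN* after the values were seen. In *CEBPE*, a factor of these cells, and in *MPO* and *LTF*, the rabbits of each group stood in the same order as in *RETN*. In *GFI1*, *MS4A3*, *CSF3R* and *LCN2* the order differed in at least 1 group. *RETN* was at 0, 1.80, 0.587, 1.35 and 0.204 CPM in Perthes rabbits 1 to 5 and at 26.4, 10.9 and 6.28 CPM in the controls, and *CEBPE* was at 0.473, 7.04, 2.39, 5.75 and 0.782 CPM and at 72.4, 28.6 and 18.5 CPM. The part of granulocyte precursors in the *RETN* values was not tested. In each of *DGAT2*, *ACSL1* and *SLC2A4*, named after their values were seen, Perthes rabbit 2 was the highest of the Perthes rabbits. The same held for the other tested genes of this list except *TRARG1*, *RBP4*, *NRG4* and *BSCL2*.

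For the triglyceride-forming enzyme *DGAT2* the Perthes rabbits were at 8.81, 140, 17.4, 51.6 and 16.5 CPM and the controls at 127, 422 and 133 CPM (log2 fold change -2.28, edgeR adjusted p = 0.101). *ACSL1*, which activates fatty acids, was lower in every Perthes rabbit than in every control, at 10.6, 76.2, 20.4, 11.0 and 14.9 CPM against 95.8, 185 and 86.1 CPM. Its log2 fold change was -2.20 (edgeR adjusted p = 0.0524). The number of the 19 genes called lower depended on single rabbits. It was 10 without Perthes rabbit 2, 1 without Perthes rabbit 1 or 4, 2 without control rabbit 3, and 0 without Perthes rabbit 3 or 5 or control rabbit 1 or 2. Over all genes, the calls lower numbered 1628 without Perthes rabbit 2, 646 without Perthes rabbit 3 and 550 without Perthes rabbit 5. Changes in the lists that follow stand beside those over all genes, and a part particular to a list was not tested.

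**Figure D4:**
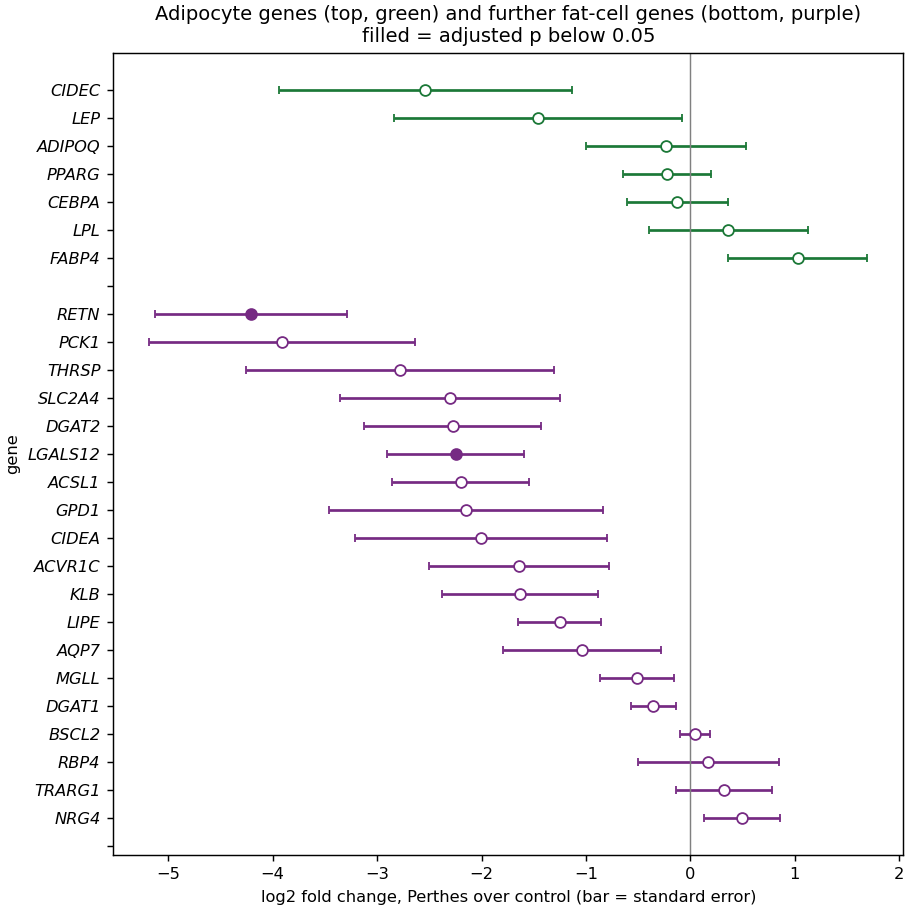
Log2 fold change of Perthes over control rabbits with its standard error, for the 7 adipocyte genes (green) and 19 further fat-cell genes (purple), from the edgeR fit to 15305 genes. Filled symbols had an adjusted p below 0.05, which were *RETN* at -4.21 and *LGALS12* at -2.25.

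Genes of fatty acid and triglyceride synthesis gave 0 calls among 17 tested in edgeR, and DESeq2 called 4 lower. In edgeR, 5 of the 17 had an unadjusted p below 0.05, all lower. Of all 15305 genes tested, 2538 were lower at such a p. Without Perthes rabbit 2, edgeR called 5 of the synthesis genes it tested lower. The lipid droplet proteins and lipases other than *CIDEC* gave 2 calls among 13 tested genes, both higher. *PLIN2*, the droplet coat protein of many cell types, rose and averaged 266 ± 137 against 46.3 ± 5.71 CPM (SD, n = 5 and 3), with a log2 fold change of 2.52 (SE 0.48, edgeR adjusted p = 0.0144) and groups that did not overlap. *LIPA*, the lysosomal acid lipase, rose from 82.5 ± 2.62 to 523 ± 307 CPM (SD, n = 3 and 5), a log2 fold change of 2.67 (edgeR adjusted p = 0.0262). Perthes rabbit 4, at 83.8 CPM, lay within the control range of *LIPA*. Both genes also stand in the list of lipid-laden macrophage markers. Perthes rabbit 2, with 94.5 CPM, had the lowest *PLIN2* of the Perthes rabbits. Without Perthes rabbit 3 or 5, or without control rabbit 3, 1 of the 2 calls was left, and without control rabbit 1 or 2 none was. Without Perthes rabbit 2, 3 of these genes were called lower, and without control rabbit 3, 1 was.

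Among the partners of LPL and the genes of fatty acid uptake, 3 of 9 tested genes were called higher and 0 lower. *FABP5*, a fatty acid carrier related to FABP4, rose from 21.2 ± 3.77 to 159 ± 87.6 CPM (SD, n = 3 and 5), a log2 fold change of 2.91 (edgeR adjusted p = 0.0151). *FABP3*, the carrier of muscle, and *VLDLR*, a lipoprotein receptor, had log2 fold changes of 2.08 and 1.48 (edgeR adjusted p = 0.0344 and 0.0216). The fatty acid transporter *CD36*, named after its values were seen, averaged 557 ± 404 CPM (SD, n = 5) and 213 ± 41.9 CPM (SD, n = 3) and was not called (edgeR adjusted p = 0.190). Without control rabbit 1 or 2 none of the 9 genes was called, and without Perthes rabbit 5 only 1 was. Without Perthes rabbit 2, 1 was called lower.

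The receptors of the fat-cell hormones were called in both directions. *ADIPOR1*, the adiponectin receptor, was at 143, 204, 129, 120 and 151 CPM in Perthes rabbits 1 to 5 and at 265, 348 and 291 CPM in the controls. It fell by 1.01 on the log2 scale (SE 0.21, edgeR adjusted p = 0.0166). *ADIPOR2*, its relative, fell by 0.67 (SE 0.17, edgeR adjusted p = 0.0326), and for both genes every Perthes rabbit was below every control. *CDH13*, a cadherin that binds adiponectin at the cell surface, rose with a log2 fold change of 1.58 (SE 0.44, edgeR adjusted p = 0.0431). The leptin receptor *LEPR*, which also marks stromal cells of the marrow and was named after its values were seen, had 6.62, 9.43, 8.66, 3.16 and 2.28 CPM in Perthes rabbits and 6.46, 14.7 and 7.21 CPM in controls (log2 fold change -0.65, edgeR adjusted p = 0.389). Without control rabbit 2, *ADIPOR1*, *ADIPOR2* and *CDH13* had adjusted p-values of 0.0756, 0.144 and 0.152, and without control rabbit 1 none of the 4 receptors was called. The *CDH13* call was also lost without any of the Perthes rabbits, and that of 1 adiponectin receptor without Perthes rabbit 3, Perthes rabbit 5 or control rabbit 3.

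Regulators of adipogenesis other than *PPARG* and *CEBPA* gave 1 call higher and 1 lower among the activators and 3 calls lower among the inhibitors. Among 16 tested activators, *CEBPB*, an early factor of differentiation, rose from 12.8 ± 5.49 to 32.6 ± 7.20 CPM (SD, n = 3 and 5; log2 fold change 1.35, edgeR adjusted p = 0.0202). *KLF5*, also an early factor, fell from 19.6 ± 6.48 to 5.604 ± 2.74 CPM (SD, n = 3 and 5; log2 fold change -1.80, edgeR adjusted p = 0.0166). Among 13 tested inhibitors, 3 were called lower, namely *GATA2* at -2.34, *KLF3* at -1.15 and *NCOR1* at -0.58 (edgeR adjusted p = 0.0153, 0.0118 and 0.0357). *GATA2* is also a factor of blood stem and progenitor cells. Without control rabbit 2 none of these 5 genes was called, with adjusted p-values from 0.0519 for *KLF3* to 0.107 for *NCOR1*, and without control rabbit 1 *KLF3* was the only 1 of the 3 inhibitors called. The activators had 0 calls higher without Perthes rabbit 3 or control rabbit 3 and 2 without Perthes rabbit 4 or control rabbit 1, and they had 2 calls lower without Perthes rabbit 2 and 0 without control rabbit 1.

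Of 6 tested genes of brown and beige fat, 1 was called, *TMEM26*, with a log2 fold change of 1.63 (edgeR adjusted p = 0.0266). That call was lost without Perthes rabbit 3 or 5 or any of the controls, and without Perthes rabbit 2 another gene was called lower. Of 14 stromal genes of the adipocyte lineage, 1 was called higher and 0 lower, with a median log2 fold change of -0.03. The called gene was *APOE*, an apolipoprotein also made by macrophages, which rose from 26.0 ± 13.6 to 130 ± 59.1 CPM (SD, n = 3 and 5; log2 fold change 2.33, edgeR adjusted p = 0.0254). Perthes rabbit 4, at 34.4 CPM, lay within the control range of *APOE*. The *APOE* call, too, was lost without Perthes rabbit 3 or 5 or any of the controls, and without Perthes rabbit 2, 2 stromal genes were called lower. The summed level of the 14 stromal genes lay between 1950 and 2670 CPM in Perthes rabbits and between 1590 and 2710 CPM in controls, so the groups overlapped. The niche factor *CXCL12*, named after its values were seen, averaged 180 ± 165 CPM (SD, n = 5) and 474 ± 121 CPM (SD, n = 3) and was not called (edgeR adjusted p = 0.136).

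The terms of the authors' own KEGG annotation were counted in the same way. The PPAR signaling pathway, which includes 4 of the 7 adipocyte genes, had 8 of 63 tested genes called higher and 1 lower. The 4 called genes of this pathway with the largest changes were all higher, namely *MMP1*, a collagenase, at 8.43, *FABP5* at 2.91, *ACSL6*, an acyl-CoA synthetase, at 2.90 and *PLIN2* at 2.52. Regulation of lipolysis in adipocytes had 1 of 42 higher and 2 lower, with *ADCY3* at 0.90, *PIK3CD* at -1.75 and *PTGER3* at -1.39. The adipocytokine signaling pathway had 2 of 62 higher and 3 lower, with *ACSL6* and *NFKBIE* among the former and *ADIPOR1*, *PRKAB1* and *ADIPOR2* among the latter. Without control rabbit 2 none of these genes was called, and without control rabbit 1 the 3 pathways had 0 calls higher and 1 call lower, in the PPAR pathway. Leaving out Perthes rabbit 4 gave 13, 2 and 4 calls higher in the PPAR, lipolysis and adipocytokine pathways, and leaving out Perthes rabbit 2 gave 5, 5 and 7 calls lower. Without Perthes rabbit 3 or 5 the calls were 5 higher and 0 lower in the PPAR pathway, 1 and 0 in the lipolysis pathway, and 1 and 1 in the adipocytokine pathway. The lipolysis pathway had 1 call lower without Perthes rabbit 1 or 4 and the adipocytokine pathway 1 call higher without control rabbit 3.

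Markers of other cells that transcribe some of the 7 genes moved between the groups, and their part in the values above was not tested. Of 12 tested markers of lipid-laden macrophages, 9 were called higher and 0 lower, with a summed level of 3220 to 11500 CPM in Perthes rabbits and 1100 to 2180 CPM in controls. Of the 9 called genes, 4 (*PLIN2*, *LIPA*, *FABP5* and *APOE*) are those already counted above among the droplet proteins and lipases, the fatty acid uptake genes and the stromal genes, so these lists are not separate evidence. The largest rises were those of the glycoprotein gene *GPNMB*, from 19.6 ± 3.65 to 3642 ± 1953 CPM, and of the galectin gene *LGALS3*, from 17.4 ± 6.70 to 498 ± 288 CPM (SD, n = 3 and 5; edgeR adjusted p = 0.0118 for each). *SPP1*, with *GPNMB* one of the markers highest in CPM, averaged 2030 and 1089 CPM and was not called (edgeR adjusted p = 0.171). *SPP1* also stands in the list of bone-forming cell markers. It made up 1854 of the 3220 CPM of the sum in Perthes rabbit 4 and 1431 of the 2180 CPM in control rabbit 2. The summed level of this list was highest in Perthes rabbits 1 and 5, the rabbits with the highest *FABP4*, and lowest among Perthes rabbits in Perthes rabbit 4. The count of 9 became 0 without control rabbit 2, 2 without control rabbit 1, 5 without control rabbit 3 and 4 without Perthes rabbit 3 or 5.

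General macrophage markers gave 4 calls higher, with *CD68* and *CSF1R* highest in CPM at log2 fold changes of 2.02 and 1.07, and 1 call lower, *C1QC* at -2.09, among 9 tested. Their sum was 572 to 2050 CPM in Perthes rabbits and 593 to 889 CPM in controls. The 4 calls became 1 without Perthes rabbit 1, 3 or 5 or control rabbit 3, and 0 without control rabbit 1 or 2, where that of *C1QC* was lost too. Among 10 endothelial markers 1 was called, *ERG*, at -0.59 (edgeR adjusted p = 0.0358), and the sums were 347 to 527 CPM in Perthes rabbits and 431 to 543 CPM in controls. The *ERG* call was absent without Perthes rabbit 2, 3 or 5 or any of the controls, and 1 endothelial gene was called higher without Perthes rabbit 4 or 5. The endothelial genes highest in CPM, *PECAM1* and *CDH5*, had log2 fold changes of -0.30 and 0.40 and were not called.

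Some markers of blood-forming cells were called lower in Perthes rabbits. Of 7 tested markers of granulocyte precursors, 4 were called lower, with sums of 16.5 to 907 CPM against 3690 to 11300 CPM, and those highest in CPM were *LCN2* at -3.87 and *LTF* at -3.83 (edgeR adjusted p = 0.0385 and 0.0524). The 4 calls became 6 without Perthes rabbit 1, 2 without control rabbit 3, 1 without Perthes rabbit 3 or 5 and 0 without control rabbit 1 or 2. Of 9 erythroid markers, 2 were called lower, among them the transferrin receptor gene *TFRC* at -0.67, and all 9 were lower in every Perthes rabbit than in every control. The erythroid markers highest in CPM, *HBB2*, a globin gene, and *SLC4A1*, the anion exchanger of red cells, had log2 fold changes of -2.56 and -3.07 and were not called (edgeR adjusted p = 0.128 and 0.114). The erythroid sum was 1133, 20430, 3701, 2929 and 1373 CPM in Perthes rabbits 1 to 5 and 26100 to 42400 CPM in controls, so that Perthes rabbit 2, whose *ADIPOQ*, *LEP* and *CIDEC* were the highest among Perthes rabbits, also had the highest erythroid sum among them. Without Perthes rabbit 2, 8 erythroid markers were called, without Perthes rabbit 1 only 1 was, and without any other single rabbit 0 were.

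The markers of the remaining tissues gave 0 calls in edgeR. Their counts at an unadjusted p below 0.05 stand beside 2345 higher and 2538 lower among all 15305 genes tested. Of 9 tested cartilage markers, 3 had an unadjusted p below 0.05, and their sum was 155000 CPM in Perthes rabbit 4, the rabbit with the lowest levels of the adipocyte genes, against 39900 to 82090 CPM in the other Perthes rabbits and 47300 to 69300 CPM in controls. Of 11 tested markers of bone-forming cells 2 had an unadjusted p below 0.05, and DESeq2 called 1, and 2 were called by edgeR without control rabbit 3. Of 4 tested skeletal muscle markers 1 had an unadjusted p below 0.05, and their sum did not exceed 38.6 CPM in any rabbit. DESeq2 called 0 of the cartilage and 0 of the muscle markers.

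**Figure D5:**
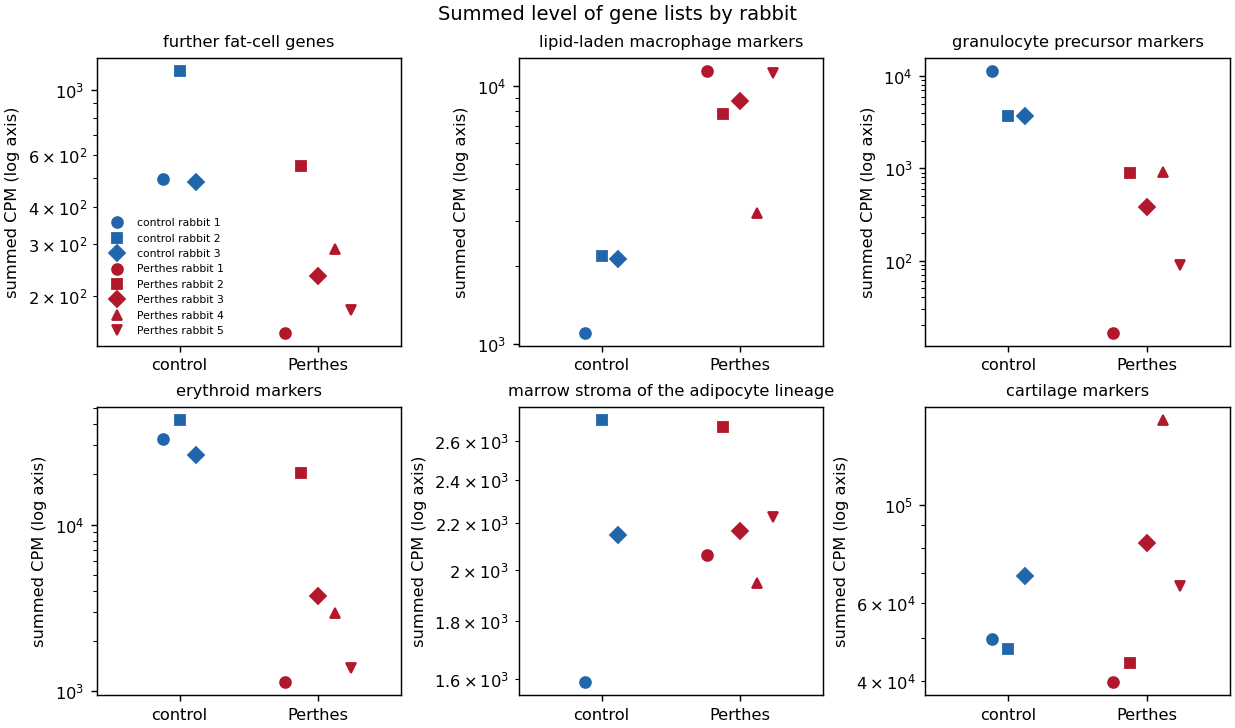
Summed CPM of 6 gene lists in every rabbit on log axes, for 3 control (blue) and 5 Perthes rabbits (red). The fat-cell list runs from 150 to 551 CPM in Perthes rabbits and from 486 to 1160 CPM in controls, the lipid-laden macrophage list is higher and the granulocyte and erythroid lists are lower in every Perthes rabbit than in every control, and Perthes rabbit 4 has the highest cartilage sum.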

How the data were processed

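Femoral head RNA of 5 Perthes and 3 control rabbits was analysed. Per the labels and the methods, the authors filtered reads with SOAPnuke, used HISAT2 2.0.4 for mapping, and used RSEM 1.1.17 with HTSeq 1.99.2 for quantification. The deposited values are the authors' expected counts, which carry no normalization and were rounded to whole numbers. Another 8 per-sample columns repeat those used and were left out, and the small RNA table was not used. Control 3 was numbered by its code, since its title names another number. The titles do not say more of the animals than a replicate number, so p-values measure the spread between these samples.

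Counts were scaled by TMM, filtered with filterByExpr and tested with the quasi-likelihood F-test of edgeR 4.0.16 in R 4.3.3, without covariates, with Benjamini-Hochberg adjustment over 15305 genes. The standard error is the log2 fold change divided by the square root of F. This main test replaces the DESeq2 analysis of the study's methods, which was run (version 1.42.0) as an alternative. The study's thresholds, an absolute log2 fold change over 2 at an adjusted p under 1e-05, were another. Further alternatives were DESeq2 size factors, library totals alone, no filter, at least 10 counts in every sample, a log2 fold change beyond 1, a block for the replicate number, and the omission of each rabbit. Exact permutation tests used all 56 divisions of 8 rabbits. Ratios were planned to *PLIN1* and taken to *ADIPOQ* instead, after the table was seen. The motif search that was planned in promoters was not run. The fit was tested on simulated data. Levels are not divided by transcript length, so the order of genes by CPM served only to choose which markers to name. The summed level of a list is ruled by its genes highest in CPM. *HBB2* made up 17930 of the 20430 CPM of the erythroid sum in Perthes rabbit 2. *COL2A1* made up 116500 of the 155000 CPM of the cartilage sum in Perthes rabbit 4. Counting intervals and floors cover counting error only.

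The 3 KEGG lists come from the authors' annotation of the table. The adipocyte genes and the 17 gene lists were chosen with earlier results of these data known. The text names the adipocyte genes, up to 4 called genes per list by size of change, the 2 markers highest in CPM of other cell types, and the 10 genes most like *ADIPOQ* in profile. A gene that this rule would name is not reported here. Genes named outside this rule are marked in the text as named or added after the values were seen. Read counting by strand was not described for the table, so antisense overlap cannot be judged, and reads shared by related genes such as *FABP4* and *FABP5* depend on how RSEM divided them.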

Additional observations from a re-analysis of the deposited data

Results flagged for a closer look

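In the Perthes group, 4 values stood far from the others on the linear CPM scale. The gap to the nearest rabbit was more than 0.71 of the range of the 5 rabbits. All 4 values belonged to Perthes rabbit 2 as the highest. They were *LEP* at 1.91 CPM, *CIDEC* at 13.6 CPM, the summed level of the 4 adipokine receptor genes at 359 CPM, and the summed level of the erythroid markers at 20430 CPM. For normally distributed values, chance alone marks about 1 in 20 groups in this way. That share need not hold for linear CPM, and these 4 sets were not examined on a log scale, where gaps between high values shrink. In total 33 sets of values were examined, many of which share rabbits and genes. The groups of 3 controls were not examined.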

How the results depend on the processing

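The count of adipocyte genes called was 0 higher and 0 lower under DESeq2, both other scalings, both other filters, a log2 fold change beyond 1 and the replicate block. It was 0 higher and 0 to 1 lower with 1 rabbit left out, where *CIDEC* without Perthes rabbit 2 was the 1. Over all genes, the 951 higher and 1357 lower became 1700 and 1917 with DESeq2. The study's thresholds were applied to the edgeR test, not to the study's own DESeq2 test, and gave 0 and 0. The smallest adjusted p of edgeR over all genes was 0.0118, so no gene could pass them and they say nothing of stability. With 1 rabbit left out they ran from 0 to 1267 higher and from 0 to 1628 lower. The replicate block left 0 higher and 0 lower calls, with 1504 and 1648 genes at an unadjusted p below 0.05. Same-numbered rabbits had deviations from their group means that correlated at -0.317, 0.161 and -0.238, and other pairs at -0.314 to 0.435. Not every rabbit correlated best with its own number. No pairing by number was seen, but so few pairs cannot exclude it. Perthes rabbits 4 and 5 have no control of the same number, so the block takes them out of the comparison. With the block, *PPARG* and *CEBPA* changed sign, to 0.023 and 0.15. With 1 rabbit left out the log2 fold changes ran from -1.16 to 0.10 for *ADIPOQ*, -0.47 to 0.16 for *PPARG* and -0.37 to 0.25 for *CEBPA*, while those of *LEP* (-1.96 to -0.51), *CIDEC* (-5.28 to -1.65), *FABP4* (0.67 to 1.46) and *LPL* (0.0040 to 1.23) kept their sign. *LEP* was not fitted without Perthes rabbit 2 or with at least 10 counts in every sample, nor *CIDEC* in the latter. The causes of these changes were not tested. Counts of 4 or fewer limit *LEP* in 4 and *CIDEC* in 3 Perthes rabbits. Of the gene lists, DESeq2 called 4 of the further fat-cell genes lower (2 in edgeR), 4 of fatty acid and triglyceride synthesis lower (0), 1 of the droplet proteins and lipases lower (0), 5 of the LPL partners higher (3) and 1 lower (0), and 2 stromal genes higher (1). It called 7 granulocyte (4) and 6 erythroid (2) markers lower and 1 endothelial and 1 bone marker higher (0 each). In the PPAR, lipolysis and adipocytokine pathways it called 13, 3 and 8 higher (8, 1 and 2) and 4, 4 and 5 lower (1, 2 and 3). With library totals alone, 4 of the further fat-cell genes were lower, 2 macrophage markers were higher in place of 4, and *CDH13* was not called. Without the low-count filter, or with at least 10 counts in every sample, 1 of the further fat-cell genes was lower. The replicate block left 0 list genes called, and other shifts in the lists were of 1 or 2 genes.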
